A study of Danio rerio with 8 samples.

Results

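The genes havcr2, vsir, lgals3bpb, bhlhe40, bhlhe41 and slc7a7, which are used to describe the state of microglia, were followed across every library of the series. They were taken by symbol from the count table, in which all 6 had a row among 24221 genes, and 5 of them passed the filter on low counts. They were chosen by their measured difference between mutants and siblings in these same counts, so their levels and fold changes are given as a description and no p-value is attached to them. The 4 mutant libraries came from rraga mutants and the 4 sibling libraries from their wild-type siblings, all from strain TL, aged 6 days post fertilization and raised in phenylthiourea, which blocks pigment. Larvae had been sorted into the 2 genotypes under a confocal microscope, and the allele and the number of larvae per library are not given in the sources used here. Cells carrying GFP driven by mpeg, a promoter active across the macrophage lineage, were collected by flow cytometry, so microglia were measured together with other macrophages. Libraries carry the numbers 1, 2, 4 and 5 of their columns, which do not match the replicate numbers in the sample titles.

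Microglia are the resident macrophages of the brain, and their state is read from surface receptors, secreted proteins and transcription factors. HAVCR2 (TIM-3) and VSIR (VISTA) are immune checkpoint receptors, of the TIM and B7 families, which mouse and human microglia carry at high levels. The protein of lgals3bpb is a secreted glycoprotein that binds galectins. BHLHE40 and BHLHE41 are related basic helix-loop-helix repressors that bind E-box motifs and act in the circadian clock and in immune cells, and SLC7A7 is the light chain of a transporter for cationic amino acids that zebrafish microglia need to settle in the brain. The mutated gene, rraga, encodes RagA, a small GTPase at the lysosome through which amino acids control the growth kinase mTORC1.

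The libraries held 24940664 to 30911560 counts in mutants and 25530526 to 29147340 counts in siblings. Transcripts of rraga itself were not depleted in the libraries labelled mutant, which had 193, 220.4, 195 and 189 CPM (read counts relative to library size after scaling with TMM factors) in libraries 1, 2, 4 and 5, against 129, 135, 136.5 and 114.5 CPM in sibling libraries 1, 2, 4 and 5. The genotypes did not overlap, and rraga was higher by 0.63 on the log2 scale (SE 0.0980, adjusted p = 0.00141 in the edgeR test). With the lesion unknown here, this level does not check the labels, and every direction below rests on the genotype as labelled.

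Both checkpoint receptor genes stood far lower in the mutants, and havcr2 showed the widest drop among the 6 genes. havcr2 (ENSDARG00000091692, GRCz11 chromosome 21, 29112053 to 29119560, minus strand) had 12.6, 13.6, 15.5 and 10.4 CPM in mutant libraries 1, 2, 4 and 5, against 87.5, 85.9, 115.5 and 86.8 CPM in sibling libraries 1, 2, 4 and 5. No mutant library came near a sibling library, and sibling library 4 stood above its group. The means were 12.99 ± 2.12 CPM in mutants and 93.9 ± 14.4 CPM in siblings (SD, n = 4 each), a log2 fold change of -2.85 (SE 0.163), which made havcr2 7.23-fold lower. Among 16086 tested genes its fold change ranked 140 from the most negative. vsir (ENSDARG00000068784, chromosome 13, 43130895 to 43149063, minus strand) had 290.4, 286, 357 and 273 CPM in mutant libraries 1, 2, 4 and 5, against 1325, 1364, 1184 and 1085 CPM in sibling libraries 1, 2, 4 and 5. Its genotypes were also wholly apart, with mutant library 4 the highest of the mutants. The means were 301.7 ± 37.6 CPM in mutants and 1239 ± 129 CPM in siblings (SD, n = 4 each), a log2 fold change of -2.04 (SE 0.126) or 4.11-fold lower.

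lgals3bpb (ENSDARG00000040528, chromosome 3, 57741933 to 57744323, minus strand), listed as lgals3bp.1 in the RefSeq gene table, was lower in the same direction. It had 513, 547, 496 and 414 CPM in mutant libraries 1, 2, 4 and 5, against 1748, 1650.0, 1949 and 1574 CPM in sibling libraries 1, 2, 4 and 5. The highest mutant library lay below the lowest sibling library. The means were 493 ± 56.8 CPM in mutants and 1730.0 ± 162 CPM in siblings (SD, n = 4 each), a log2 fold change of -1.81 (SE 0.122) or 3.51-fold lower. In bulk RNA, a different share of cells of a type and a different amount of RNA per cell cannot be told apart. This holds for each of the lower genes and for the higher genes below.

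The 2 bHLH repressor genes were higher in the mutants, and of all 6 genes bhlhe41 varied least within a genotype. bhlhe41 (ENSDARG00000041691, chromosome 18, 16125852 to 16130165, plus strand) had 204, 183, 185 and 169.6 CPM in mutant libraries 1, 2, 4 and 5, against 22, 21.2, 23.0 and 24.8 CPM in sibling libraries 1, 2, 4 and 5. The libraries of a genotype lay close together, with a coefficient of variation of 7.62% in mutants and 6.76% in siblings, and the gap between genotypes was many times that spread. The means were 185 ± 14.1 CPM in mutants and 22.7 ± 1.54 CPM in siblings (SD, n = 4 each), a log2 fold change of 3.03 (SE 0.104) or 8.15-fold higher. bhlhe40 (ENSDARG00000004060, chromosome 11, 35759652 to 35763323, minus strand) had 2093, 1624, 1882 and 2455 CPM in mutant libraries 1, 2, 4 and 5, against 797, 632, 846 and 958 CPM in sibling libraries 1, 2, 4 and 5. Library 5 was the highest and library 2 the lowest in both genotypes, and the genotypes did not overlap. The means were 2013 ± 352 CPM in mutants and 808 ± 136 CPM in siblings (SD, n = 4 each), a log2 fold change of 1.32 (SE 0.166) or 2.49-fold higher.

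slc7a7 (ENSDARG00000055226, chromosome 7, 19562045 to 19587542, plus strand) had too few reads to be tested. Its raw counts were 10, 9, 5 and 8 in mutant libraries 1, 2, 4 and 5, against 28, 6, 8 and 13 in sibling libraries 1, 2, 4 and 5. The genotypes overlapped, and library 1 alone held most of the difference between the sums, which were 32 counts in mutants and 55 in siblings. Without the filter on low counts its log2 fold change was -0.56 and it was not called. The genes on both sides of slc7a7 had fewer reads still: man2b2, for a lysosomal mannosidase, and oxa1l, whose product inserts proteins into the mitochondrial inner membrane and is used by most cells, had 2 counts each over the 8 libraries, where slc7a7 had 87. These 2 genes were singled out after their values were seen. A low count of slc7a7 in this table was therefore not read as a low level in the cells, and the reason for the low counts there was not tested.

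**Figure D1:**
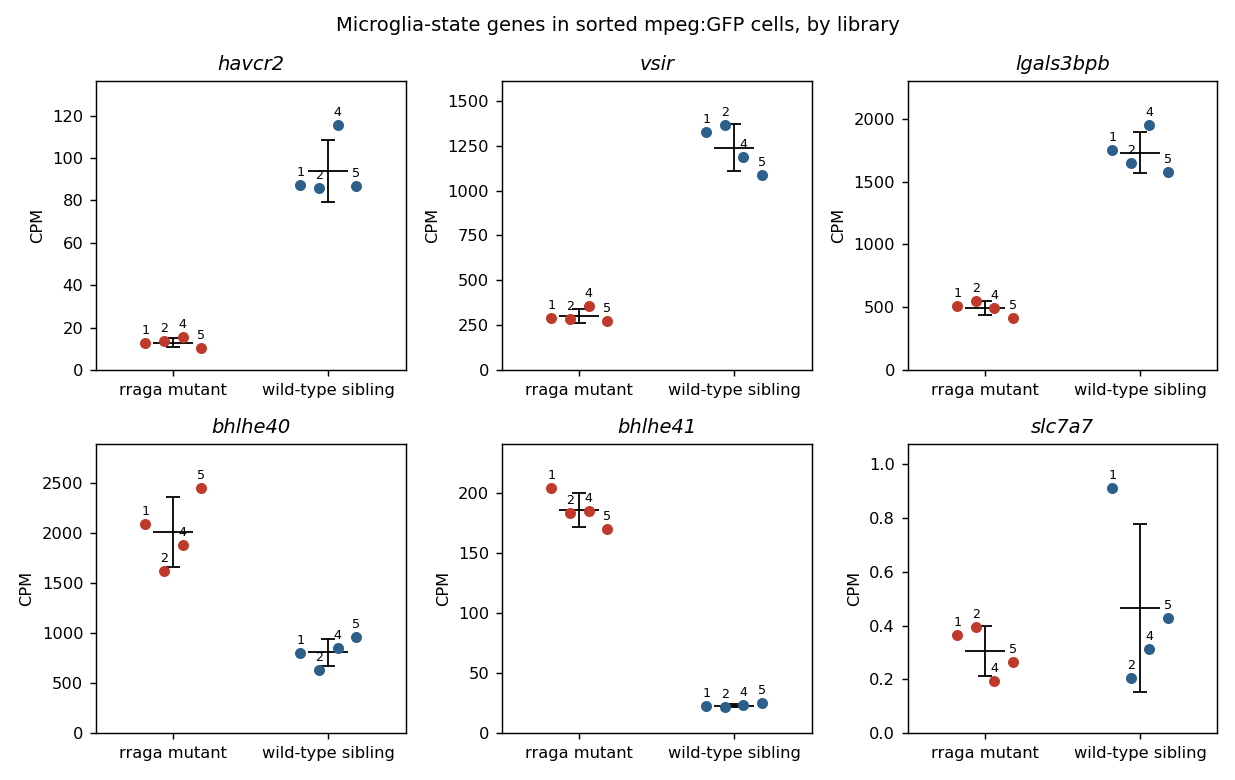
CPM of each of the 6 genes in each library, with the library number above each point and a bar at the mean with the SD (n = 4). Mutants, on the left of each panel, lie wholly below siblings for havcr2, vsir and lgals3bpb and wholly above them for bhlhe40 and bhlhe41, while the slc7a7 panel spans less than 1 CPM and its genotypes overlap.

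Of the 5 tested genes, 2 were called higher, where 14.5% of all tested genes were, and 3 were called lower, where 13.9% were (quasi-likelihood F-test of edgeR, p-values corrected after Benjamini and Hochberg, threshold 0.05). All 5 had genotypes that did not overlap, as did 31.4% of tested genes. Since the genes were picked for this contrast, nothing is read from these counts. Deviations from the genotype mean correlated weakly between same-numbered mutant and sibling libraries (r of 0.108 to 0.246). Such libraries gave log2 ratios between -3.07 and -2.66 for havcr2, between -2.25 and -1.73 for vsir and between -1.97 and -1.59 for lgals3bpb. For bhlhe40 they lay between 1.15 and 1.39, and for bhlhe41 between 2.78 and 3.21. Genotypes that do not overlap fix the sign of these ratios, so only their range is described. For slc7a7 the ratios ran from -1.32 to 0.95 and had no common sign.

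Levels of different genes were set side by side as CPM per kb of gene length. In mutants the order was bhlhe40 at 718 ± 125, lgals3bpb at 247 ± 28.5, vsir at 152 ± 18.9, bhlhe41 at 58.8 ± 4.48, havcr2 at 6.55 ± 1.07 and slc7a7 at 0.127 ± 0.0384 CPM per kb (SD, n = 4). In siblings it was lgals3bpb at 868 ± 81.3, vsir at 624 ± 64.9, bhlhe40 at 288 ± 48.4, havcr2 at 47.3 ± 7.27, bhlhe41 at 7.21 ± 0.487 and slc7a7 at 0.194 ± 0.131 CPM per kb (SD, n = 4). Each neighbouring pair in either order had ranges over the 4 libraries that did not overlap. The repressor gene bhlhe40 was thus the most abundant of the 6 in mutants and the third in siblings, and havcr2 and bhlhe41 stood in opposite order in the 2 genotypes. bhlhe41 supplied 7.72% ± 1.40 of the summed bhlhe40 and bhlhe41 level per length in mutants and 2.47% ± 0.288 in siblings, so bhlhe40 transcripts outnumbered those of its relative in both.

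The TIM genes lie side by side on the minus strand of chromosome 21, with timd4 (29090652 to 29100110), havcr1 (29100972 to 29110607) and havcr2 in that order and under 2 kb between neighbours. They did not share a direction. havcr1, which encodes a relative of the phosphatidylserine receptor TIM-1 and is by far the most abundant of these genes here, had 2310.0, 2511, 2612 and 1894 CPM in mutant libraries 1, 2, 4 and 5, against 1367, 1402, 1891 and 1265 CPM in sibling libraries 1, 2, 4 and 5. It was higher in mutants by 0.65 on the log2 scale (SE 0.157, adjusted p = 0.0125 from the edgeR test with Benjamini-Hochberg correction), with mutant library 5 barely above sibling library 4. timd4, for the engulfment receptor TIM-4, had 8.51, 15.9, 3.39 and 5.12 CPM in mutant libraries 1, 2, 4 and 5, against 7.92, 15.7, 5.48 and 3.12 CPM in sibling libraries 1, 2, 4 and 5. The 2 genotypes covered almost the same range and library 2 was the highest in both, with a log2 fold change of 0.03 (SE 0.564) that did not pass (adjusted p = 0.979, same test). Of the summed level per length of the 3 genes, havcr2 made up 0.905% ± 0.0416 in mutants and 9.44% ± 0.503 in siblings (SD, n = 4 each), and havcr1 made up 98.5% ± 0.349 in mutants and 89.6% ± 0.534 in siblings.

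lgals3bpb also lies in a row of related genes on the minus strand, beside lgals3bpa (chromosome 3, 57699246 to 57711711) and a gene listed as LGALS3BP (1 of many) (57718367 to 57737913). Both of these were scarce, and both fell. LGALS3BP (1 of many) was named after its values were seen, so its adjusted p is a description only. lgals3bpa averaged 5.46 ± 1.21 CPM in mutants and 11.8 ± 3.38 CPM in siblings (log2 fold change -1.11, SE 0.257, adjusted p = 0.0106), and the unnumbered copy averaged 1.498 ± 0.552 CPM in mutants and 6.20 ± 1.76 CPM in siblings (log2 fold change -2.05, SE 0.340, adjusted p = 0.00203; the edgeR test with Benjamini-Hochberg correction, n = 4 each). Related copies can share reads, so the scarce ones are uncertain. lgals3bpb held nearly all of the 3 genes' reads, and their sum was 499.7 ± 57.8 CPM in mutants and 1748 ± 165 CPM in siblings.

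The genes next to both bHLH repressors were looked up as well, as was cant1a next to lgals3bpb. All were named after their values were seen, so their adjusted p-values are a description only. The gene downstream of bhlhe41 on the same strand, 3429 bases beyond its end, is ctsd (chromosome 18, 16133595 to 16146081), which encodes the lysosomal protease cathepsin D. ctsd had 10910.0, 13310.0, 10310.0 and 10280.0 CPM in mutant libraries 1, 2, 4 and 5, against 1133, 1483, 1688 and 1149 CPM in sibling libraries 1, 2, 4 and 5, so the genotypes were wholly apart. sspn, the gene 2629 bases away on the other side of bhlhe41, did not pass the filter on low counts. The ctsd fold of 8.22 was close to the 8.15 of bhlhe41. Downstream of bhlhe40, 3183 bases beyond its end on the same strand, lies arl8bb (chromosome 11, 35744918 to 35756468), for a small GTPase that moves lysosomes. arl8bb averaged 99.5 ± 4.73 CPM in mutants and 57.5 ± 9.82 CPM in siblings and rose by 0.79 on the log2 scale (SE 0.130, adjusted p = 0.00191 from the edgeR test with Benjamini-Hochberg correction). On the other side of bhlhe40, itpr1b, for a calcium channel of the endoplasmic reticulum, averaged 13.6 ± 3.46 CPM in mutants and 16.7 ± 2.90 CPM in siblings and did not pass (adjusted p = 0.350, same test). cant1a, the gene beside lgals3bpb on the other side, averaged 81.9 ± 5.74 CPM in mutants and 61.3 ± 7.10 CPM in siblings (log2 fold change 0.42, SE 0.113), opposite in direction to lgals3bpb. Its adjusted p was 0.0217 in the edgeR test, and it did not pass without mutant library 1 (0.0616) or 2 (0.0501), or scaled by library size alone (0.103).

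**Figure D2:**
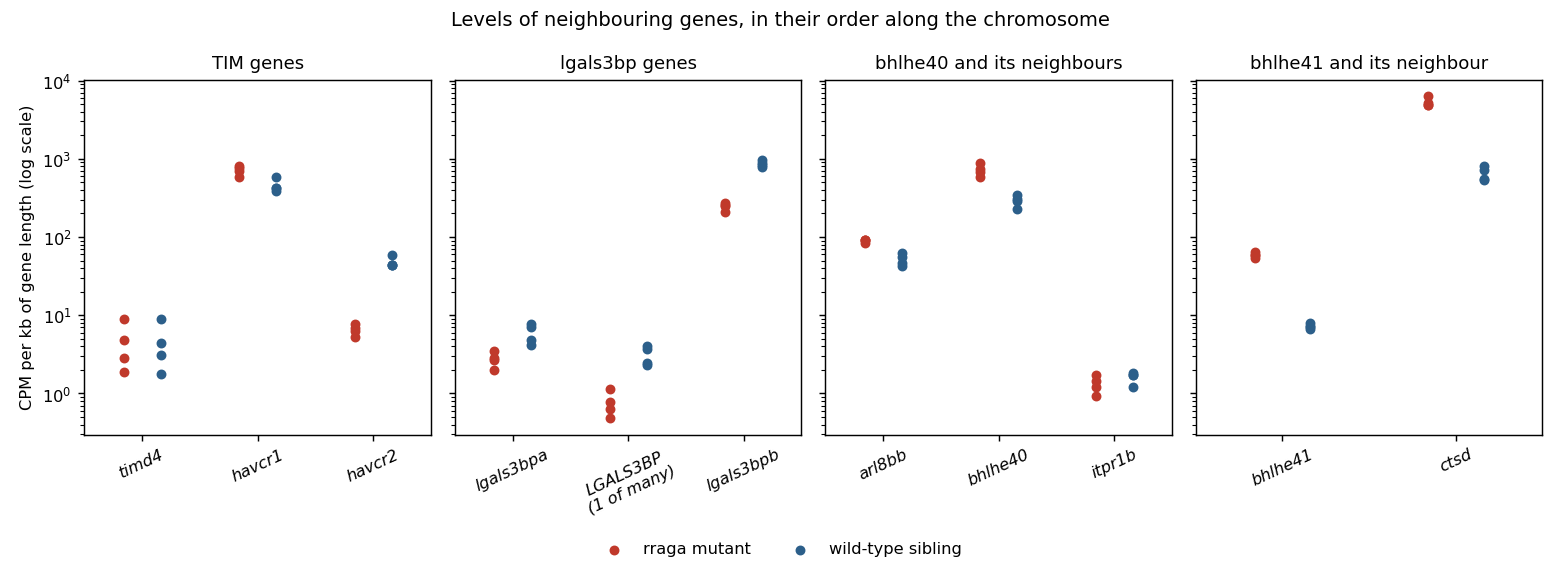
CPM per kb of gene length on a log scale for genes that lie next to one another, in their order along the chromosome, with 1 point per library and mutants to the left of siblings for each gene. havcr2 is lower in mutants beside havcr1, which is higher, while the 3 lgals3bp genes are all lower and bhlhe41 and ctsd are both higher by about the same distance.

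The state genes were read beside lists of related genes. These lists were chosen with earlier results of these data known, so their counts are a description only. The homeostatic microglia list held receptor, complement and transcription factor genes chosen here for resting microglia, and not all are particular to them. Of its 34 tested genes 16 fell (47.1%, against 13.9% of all tested genes) and 5 rose (14.7%, near the 14.5% of all). Its median log2 fold change was -0.62, against -0.09 for all tested genes. The complement gene c1qb averaged 7.34 ± 1.01 CPM in mutants and 62.5 ± 27.9 CPM in siblings (log2 fold change -3.09, SE 0.362), and the mannose receptor gene mrc1a averaged 7.23 ± 2.54 CPM in mutants and 54.0 ± 11.1 CPM in siblings (log2 fold change -2.90, SE 0.270). Both passed the edgeR test (adjusted p = 3.01e-04 for c1qb and 8.49e-05 for mrc1a). On the same list smad3a, for a mediator of TGF-beta signals, rose to 65.9 ± 13.02 CPM in mutants, against 7.65 ± 1.52 CPM in siblings (log2 fold change 3.11, SE 0.209), and hexa, for a subunit of lysosomal hexosaminidase, rose to 55.8 ± 12.4 CPM, against 27.2 ± 7.71 CPM (log2 fold change 1.04, SE 0.225). Of the 34 genes, 3 were further down than havcr2, 6 further than vsir and 8 further than lgals3bpb, and smad3a alone was further up than bhlhe40 or bhlhe41. Since the state genes were chosen for this contrast, nothing is read from these places. A median of -0.62 was not particular to the homeostatic list. The skeletal muscle (-1.06), handling (-0.87) and epidermis (-0.82) lists described below had lower medians. The lymphoid (-0.58) and neutrophil (-0.52) lists had medians near it.

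A list drawn from disease-associated microglia of mice held 41 tested genes. Of these, 14 rose (34.15%, against 14.5% of all tested genes) and 6 fell (14.63%, near the 13.9% of all). The median log2 fold change was 0.31. Many listed genes encode lysosomal proteins, such as cathepsins, and those that rose include ctsd, the neighbour of bhlhe41. The gene tyrobp is on both this list and the homeostatic list. gpnmb, a transmembrane glycoprotein gene of the disease-associated state, averaged 4477 ± 1252 CPM in mutants and 71.6 ± 22.1 CPM in siblings (log2 fold change 5.97, SE 0.328). spp1, for the secreted protein osteopontin, averaged 19.4 ± 11.2 CPM in mutants and 1.37 ± 1.98 CPM in siblings. It rose by 3.81 on the log2 scale (SE 0.956, adjusted p = 0.0155, edgeR), and by 5.63 without sibling library 5. Genes of the list also moved the other way: the tetraspanin gene cd9b averaged 73.4 ± 13.01 CPM in mutants and 244 ± 33.1 CPM in siblings (log2 fold change -1.74, SE 0.152), and the cholesterol exporter gene abca1a averaged 81.4 ± 10.1 CPM in mutants and 145 ± 17.8 CPM in siblings (log2 fold change -0.84, SE 0.128).

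The list of TIM and B7 checkpoint genes with their ligands and signalling partners held 21 tested genes beside havcr2 and vsir. Of these 21, 5 fell (23.8%, against 13.9% of all tested genes) and 2 rose (9.52%, against 14.5%). The median of the list, -0.05, lay near the -0.09 of all genes. Its genes havcr1 and selplg are also on the homeostatic list. selplg, whose product PSGL-1 binds VISTA in mammals, averaged 252 ± 40.9 CPM in mutants and 417 ± 104 CPM in siblings (log2 fold change -0.73, SE 0.187), and the Src-family kinase gene hck averaged 185 ± 27.0 CPM in mutants and 278 ± 56.2 CPM in siblings (log2 fold change -0.59, SE 0.163). Their adjusted p was 0.0173 for selplg and 0.0236 for hck in the edgeR test. selplg did not pass without mutant library 5 (adjusted p = 0.0567) or sibling library 1 (0.0504) or 2 (0.0551), and hck did not pass without mutant library 2 (0.0517) or 5 (0.0723) or sibling library 2 (0.0665) or 4 (0.0573). The number that fell was 0 without mutant library 5, 1 without sibling library 1, 2 or 4, and 3 without mutant library 2 or sibling library 5. The 2 that rose were havcr1 and lgals9l1, and 1 rose without mutant library 1, 2 or 5 or sibling library 1 or 2. Galectin-9, a ligand of TIM-3 in mammals, has several relatives in the table. lgals9l1 averaged 1147 ± 148 CPM in mutants and 864 ± 108 CPM in siblings with overlapping genotypes (log2 fold change 0.41, SE 0.132, adjusted p = 0.0439 in the edgeR test). It did not pass when replicate number was blocked (adjusted p = 0.0581), nor without mutant library 1 (0.0915), 2 (0.110) or 5 (0.0556) or sibling library 1 (0.111) or 2 (0.0903).

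Among galectins and other galectin-binding genes, 2 of 11 tested genes rose and 2 fell (18.2% each), near the 14.5% and 13.9% of all tested genes. Beside lgals9l1, lgals3a, a galectin-3 gene, rose to 161 ± 13.9 CPM in mutants, against 123 ± 11.0 CPM in siblings (log2 fold change 0.39, SE 0.106, adjusted p = 0.0228 in the edgeR test). lgals3a did not pass scaled by library size alone (adjusted p = 0.174, same test) or without mutant library 1 (0.0601). Without that library 0 galectins rose, and without mutant library 2 or 5 or sibling library 1 or 2 the number was 1. Those on the list that fell were lgals3bpa and the galectin gene lgals2b, at 27.4 ± 11.2 CPM in mutants and 76.7 ± 19.5 CPM in siblings (log2 fold change -1.49, SE 0.314, adjusted p = 0.00684, same test). The related copy LGALS3BP (1 of many), which also fell, was not on this list and is not in these counts.

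The circadian list holds E-box factors of the clock together with kinases, nuclear receptors and bZIP factors that work with them. Of its 38 tested genes 10 were lower (26.3%, against 13.9% of all tested genes) and 2 higher (5.26%, against 14.5%). The median log2 fold change was -0.38. With replicate number as a block, and also without sibling library 5, 4 were higher. csnk1e, for a casein kinase that phosphorylates PER proteins, averaged 118 ± 11.7 CPM in mutants and 34.02 ± 1.60 CPM in siblings (log2 fold change 1.79, SE 0.107). The other riser was roraa, which was named only because the count was small, at 9.16 CPM in mutants and 3.16 CPM in siblings. nfil3-6, related to the bZIP repressor gene NFIL3, fell most, to 31.8 ± 13.5 CPM in mutants, against 198 ± 32.7 CPM in siblings (log2 fold change -2.64, SE 0.275), and ciartb, for a repressor of the clock, fell to 21.0 ± 2.22 CPM in mutants, against 46.7 ± 10.3 CPM in siblings (log2 fold change -1.15, SE 0.170). All 3 passed the edgeR test, with adjusted p of 7.03e-06 for csnk1e, 1.56e-04 for nfil3-6 and 0.00108 for ciartb.

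Of 13 tested relatives and partners of slc7a7 in the SLC7 and SLC3 families, 2 rose and 2 fell (15.4% each, near the share of all tested genes), and 4 fell when replicate number was blocked. slc7a8a, for a light chain that carries neutral amino acids, averaged 358 ± 56.6 CPM in mutants and 239 ± 27.2 CPM in siblings (log2 fold change 0.59, SE 0.137), and the other riser, slc7a9, named only because the count was small, had 5.13 CPM in mutants and 0.924 CPM in siblings. The cystine transporter gene slc7a11 averaged 25.1 ± 1.45 CPM in mutants and 46.8 ± 13.2 CPM in siblings (log2 fold change -0.90, SE 0.194), and slc7a3b, for a cationic amino acid transporter, averaged 15.6 ± 3.56 CPM in mutants and 27.6 ± 3.83 CPM in siblings (log2 fold change -0.82, SE 0.186). The heavy chain that pairs with the SLC7A7 light chain is encoded by slc3a2a and slc3a2b. slc3a2a averaged 215 ± 20.5 CPM in mutants and 261 ± 66.1 CPM in siblings and did not pass (adjusted p = 0.253 in the edgeR test), except scaled by library size alone (0.049). slc3a2b had 523, 506, 448 and 385 CPM in mutant libraries 1, 2, 4 and 5, against 663, 857, 585 and 470.5 CPM in sibling libraries 1, 2, 4 and 5, and did not pass either (log2 fold change -0.47, adjusted p = 0.0858). It passed when replicate number was blocked (adjusted p = 0.0113), without sibling library 5 (0.0433), scaled by library size alone (0.0225) and with the stricter filter (0.0399).

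**Figure D3:**
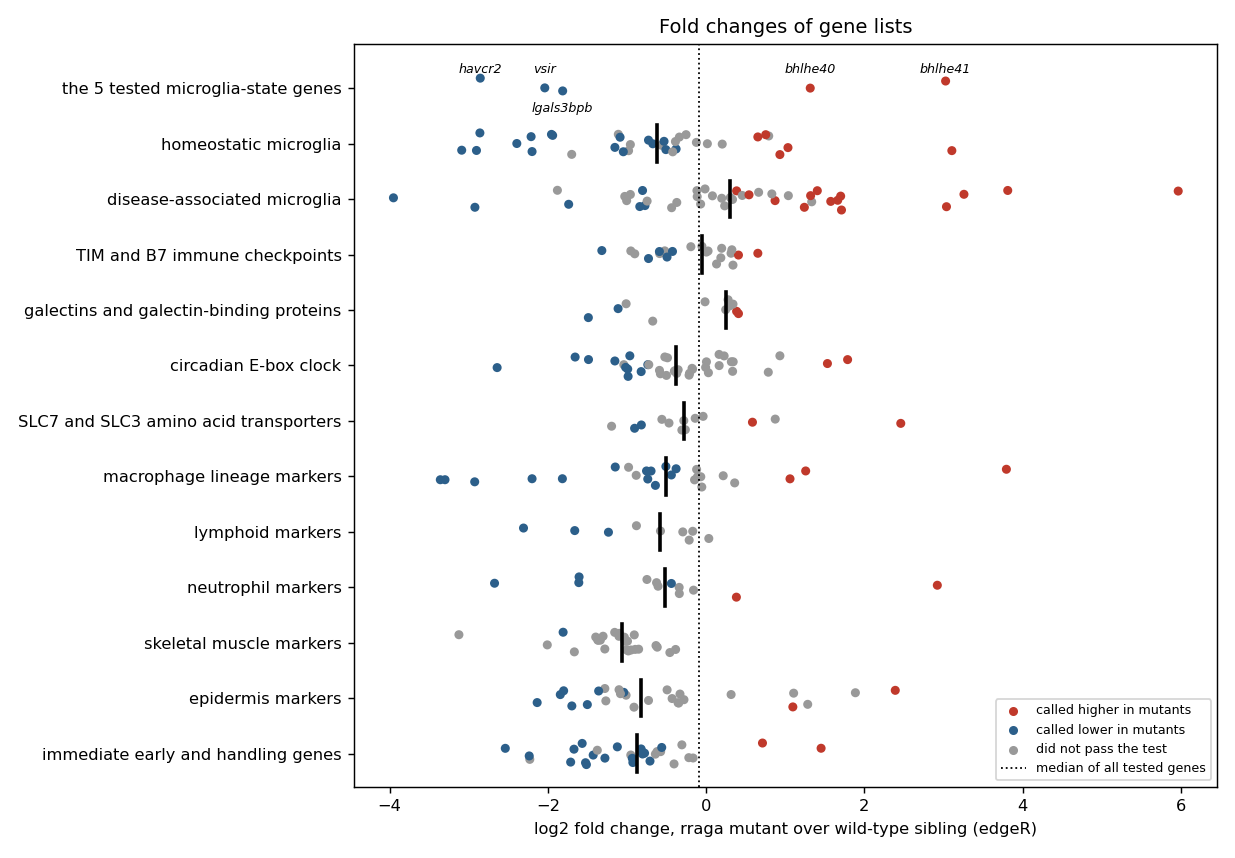
Log2 fold change of every tested gene of each list, mutant over sibling, with 1 point per gene coloured by its call, a black bar at the median of each list and a dotted line at the median of all tested genes (-0.09). The homeostatic list has its median at -0.62 and the disease-associated list at 0.31. The skeletal muscle, handling and epidermis lists have lower medians than the homeostatic list. The 5 tested state genes, in the top row, were chosen for this contrast and stand outside the homeostatic and disease-associated medians.

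Markers of the sorted lineage were present throughout and moved with the genotype. Of 25 tested macrophage lineage markers 13 fell (52.0%, against 13.9% of all tested genes) and 3 rose (12%, against 14.5%), with a median log2 fold change of -0.51. The markers csf1ra, csf1rb, mafba and mafbb are also on the homeostatic list. mpeg1.1, whose promoter drives the GFP of the sort, averaged 65.5 ± 23.7 CPM in mutants and 231 ± 13.2 CPM in siblings. p2ry12, a microglial purinergic receptor gene, averaged 16.8 ± 3.77 CPM in mutants and 88.0 ± 13.1 CPM in siblings, and both genes fell. apoeb, a lipoprotein gene abundant in zebrafish microglia, did not pass, at 3508 ± 720.2 CPM in mutants and 5193 ± 2244 CPM in siblings. The call of csf1ra, a receptor gene for the growth factor CSF1, turned on the processing. csf1ra averaged 131 ± 62.6 CPM in mutants and 257 ± 84.2 CPM in siblings (adjusted p = 0.0577 in the edgeR test). It passed in 7 of 16 alternatives: when replicate number was blocked (adjusted p = 0.00354), without mutant library 2 (0.0109), by library size alone (0.0261), with upper-quartile factors (0.0444), with the stricter filter (0.0326), in DESeq2 (0.0194) and in limma-voom (0.0322). The actin-bundling gene lcp1, at 2468 ± 227 CPM in mutants and 3846 ± 323 CPM in siblings, fell by 0.64 on the log2 scale, and the transcription factor gene cebpb, at 9040.0 ± 1560.0 CPM in mutants and 9819 ± 942 CPM in siblings, did not pass. Of the 25 markers, 3 were further down than havcr2, 4 further than vsir and 5 further than lgals3bpb. Here too nothing is read from these places, since the state genes were chosen for this contrast.

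Transcripts of other cells and of handling were counted too, and their part in the values above was not tested. Lymphoid cells also carry TIM-3 and VISTA. Of 24 listed lymphoid genes 9 were tested, and 3 of these fell (33.3%, against 13.9% of all tested genes) and 0 rose (against 14.5%). The list took 0.00251% to 0.00364% of mutant counts and 0.00471% to 0.00784% of sibling counts. Its genes nkl.3 and ighz were at 0 in every mutant library, and its most abundant genes were eomesa, at 13.1 ± 6.75 CPM in mutants and 19.6 ± 3.49 CPM in siblings, and gata3, at 7.03 ± 0.868 CPM in mutants and 16.6 ± 4.43 CPM in siblings. eomesa did not pass (adjusted p = 0.200), except when replicate number was blocked (0.0472) and without mutant library 4 (0.00531). Neutrophil markers rose in 2 of 12 cases (16.7%, near the 14.5% of all tested genes) and fell in 4 (33.3%, against 13.9%). They took 0.290% to 0.529% of mutant counts and 0.302% to 0.621% of sibling counts. Their most abundant genes were lect2l, at 1145 ± 345 CPM in mutants and 151 ± 42.4 CPM in siblings, and mmp9, at 797.5 ± 342 CPM in mutants and 1339 ± 543 CPM in siblings, which did not pass.

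Skeletal muscle genes took 0.506%, 0.0612%, 0.0861% and 0.297% of the reads of mutant libraries 1, 2, 4 and 5, against 0.496% to 0.685% in siblings. Of 26 tested muscle genes 1 fell (3.85%, under the 13.9% of all tested genes) and 0 rose (against 14.5%). The median log2 fold change of these muscle genes was nevertheless -1.06, against -0.09 for all tested genes. Their most abundant genes, actc1b (1147 ± 1106 CPM in mutants and 2333 ± 633 CPM in siblings) and mylz3 (237 ± 214 CPM in mutants and 476 ± 121 CPM in siblings), did not pass (adjusted p = 0.251 and 0.229 in the edgeR test). Both passed when replicate number was blocked (0.0391 for actc1b and 0.0313 for mylz3) and without mutant library 1 (0.0277 and 0.0292). Epidermis genes took 0.0795% to 0.238% of mutant counts and 0.148% to 0.252% of sibling counts. Of 26 tested epidermis genes 7 fell (26.9%, against 13.9% of all tested genes) and 2 rose (7.69%, against 14.5%). Their most abundant genes were anxa1a, at 456 ± 165 CPM in mutants and 86.9 ± 12.5 CPM in siblings, and icn, at 256 ± 149 CPM in mutants and 321 ± 71.0 CPM in siblings, which did not pass. Immediate early and handling genes fell in 18 of 30 cases (60%, against 13.9% of all tested genes) and rose in 2 (6.67%, against 14.5%), and took 1.02% to 1.183% of mutant counts and 2.00% to 2.08% of sibling counts. The most abundant of them were mcl1a, at 2067 ± 211 CPM in mutants and 3047 ± 382 CPM in siblings, and nfkbiab, at 1734 ± 244 CPM in mutants and 2017 ± 190.5 CPM in siblings, which did not pass (adjusted p = 0.242 in the edgeR test). Scaled by library size alone, nfkbiab passed (adjusted p = 0.0394, same test). With each library left out in turn, the log2 fold change stayed between -2.94 and -2.72 for havcr2, between -2.13 and -1.95 for vsir, between -1.86 and -1.70 for lgals3bpb, between 1.24 and 1.43 for bhlhe40 and between 2.98 and 3.11 for bhlhe41. These genes were chosen for this contrast and their genotypes do not overlap, so only the ranges are described. The part of other cells or handling in them was not tested.

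**Figure D4:**
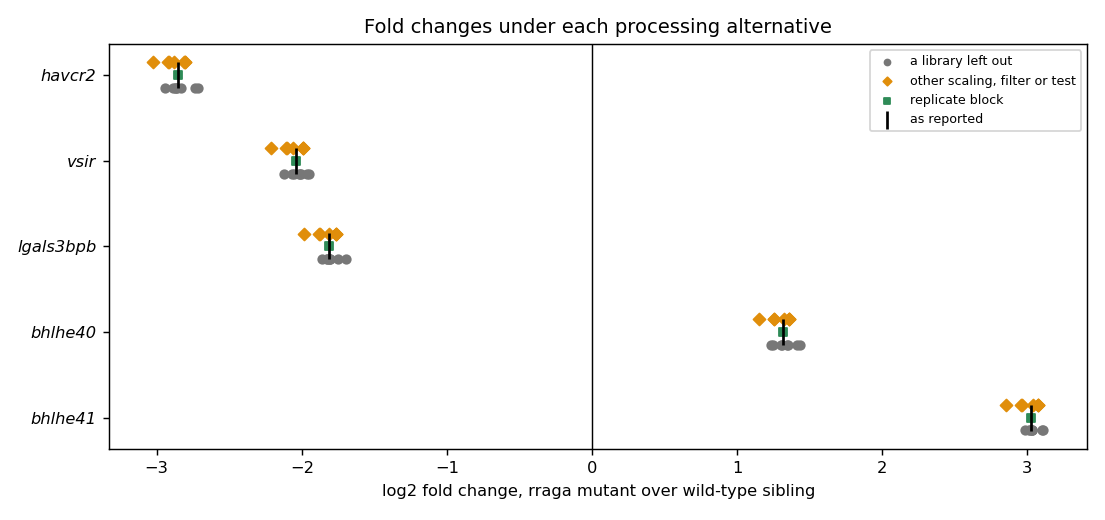
Log2 fold change of the 5 tested state genes, mutant over sibling, as reported (black bar) and under 16 alternatives of scaling, filter, test, replicate block or a library left out. havcr2, vsir and lgals3bpb stay below 0 and bhlhe40 and bhlhe41 above it under each of them. The genes were chosen for this contrast, so nothing is read from these signs.

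Genes with the most similar pattern were sought among 6747 genes with an assigned symbol and at least 10 CPM, by Pearson's r of log2 CPM over the 8 libraries. Because the libraries form 2 genotype clusters, such an r mostly records the genotype difference and is given as a description only. The closest genes to havcr2 were tbc1d16, lgals3bpb and ccr2, those to vsir were rps6ka1, slc25a32a and slc1a3a, and those to lgals3bpb were havcr2, p2ry12 and ECE2 (r of 0.99 or more for each). bhlhe41 was closest to gda, taf4a and nupr1, and bhlhe40 to RAB21, bri3 and mmp14b. Thus havcr2 and lgals3bpb named each other. After each genotype's mean was subtracted, which leaves only the spread among replicates, r was 0.79 between havcr2 and lgals3bpb, 0.36 between havcr2 and vsir, and 0.29 between bhlhe40 and bhlhe41. It was 0.20 between vsir and lgals3bpb, 0.30 between havcr2 and bhlhe41 and 0.32 between lgals3bpb and bhlhe41, and negative for the other 4 pairs, down to -0.60 between vsir and bhlhe40. On that measure the closest genes were crfb4, atp6v0ca and pip4p2 for havcr2 (r of 0.97 to 0.99), spty2d1, rps6ka1 and med21 for vsir (0.95 to 0.98), and jagn1b, agtrap and npepl1 for lgals3bpb (0.97 each). They were lonrf1l, pip5k1bb and cdaa for bhlhe40 (0.97 to 0.98) and kat7b, ucp1 and eefsec for bhlhe41 (0.90 to 0.97). These are the highest of 6747 values of r, each over 8 libraries less their 2 genotype means. All values of r on that measure are likewise a description only. Sibling library 4 was the highest sibling for both havcr2 (115.5 CPM) and lgals3bpb (1949 CPM), and its part in their r of 0.79 was not tested.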

How the data were processed

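Polyadenylated RNA of sorted cells was sequenced from 8 libraries made with a SMART-Seq v4 kit, per the labels' protocols. The authors deposited raw read counts per Ensembl gene. The submitters' processing notes name HISAT2 2.0.5, StringTie 1.3.3b, featureCounts 1.5.0 and build GRCz11, while no strand setting is stated in them or in the labels. Libraries held 24940664 to 30911560 counts. Gene lengths are those of the deposited table, an other kind of value with no normalization. 16 further columns of per-library values were not used.

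Columns were assigned to genotypes by name. Libraries of a genotype differed by more than sampling noise (chi-square per degree of freedom of 45.8 to 94.8). Deviations from the genotype mean correlated at 0.108 to 0.246 for equal column numbers and at -0.157 to 0.00675 for others, so the numbers were taken as pairs for the log2 ratios. The reported test did not use these pairs, and a fit blocked on replicate number was an alternative. Nothing in the labels says whether libraries came from separate clutches. The p-values therefore set the genotype difference against the spread between these libraries only.

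Genes were filtered with filterByExpr (minimum count 10), given TMM factors and compared in edgeR 4.0.16 (quasi-likelihood, two-sided, Benjamini-Hochberg over 16086 genes, threshold 0.05) in R 4.3.3, with DESeq2 1.42.0 and limma 3.58.1 as alternatives. The SE of a log2 fold change is its size over the square root of F. Fold changes are mutant over sibling. The procedure was tested on simulated counts. Members, lists and tests were chosen with earlier results of these data known, and the handling list and the neighbouring genes were added later. In each function list the 2 largest rises and falls of at least 10 CPM were named, with fixed paralogs, partners and identity checks, the mutated gene, added later, and the 2 most abundant genes of each marker list. No sequence is shown.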

Additional observations from a re-analysis of the deposited data

Results flagged for a closer look

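Among 104 groups of 4 libraries examined for 1 value far from the other 3, 4 were singled out, and chance alone gives about 1 in 20. havcr2 stood at 115.5 CPM in sibling library 4, with the other siblings at 85.9 to 87.5 CPM (gap over range 0.947). p2ry12 stood at 11.2 CPM in mutant library 5, with the other mutants at 18.2 to 19.2 CPM (0.875). arl8bb stood at 92.5 CPM in mutant library 5, with the others at 101 to 103 CPM (0.892). eomesa stood at 23.2 CPM in mutant library 4, with the others at 8.95 to 10.2 CPM (0.913).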

How the results depend on the processing

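The log2 fold changes of the 5 state genes, which were chosen for this contrast, kept their sign under all 16 alternatives, and nothing is read from that. Scaled by library size alone, the log2 fold change of all 5 moved down. It was -3.02 for havcr2, -2.21 for vsir, -1.98 for lgals3bpb, 1.15 for bhlhe40 and 2.85 for bhlhe41. The move was larger than the spread between replicates for vsir, lgals3bpb and bhlhe41, and smaller than that spread for havcr2 and bhlhe40. That scaling put the median of all tested genes at -0.26, against -0.09, and made 1659 genes higher and 3123 lower, or 34.7% higher, where the reported test gave 2334 and 2233, or 51.1%. Counts of called genes in short lists moved most. Checkpoint genes that rose numbered 1 with upper-quartile factors, library size alone or the stricter filter, 4 with DESeq2, and 1 to 3 with a library left out, against 2 as reported. Those that fell numbered 3 without the filter and 0 to 5 with a library left out, against 5. Galectins that rose numbered 1 with upper-quartile factors or the stricter filter, 0 by library size alone and 0 to 3 with a library left out, against 2. Clock genes that rose numbered 4 with replicate number as a block and 2 to 4 with a library left out, against 2. Amino acid transporter genes that rose numbered 1 with the stricter filter, and those that fell 4 by library size alone or with the block, against 2 each. The block gave 2857 genes higher and 2673 lower, and among the named genes changed the calls of lgals9l1, slc3a2b, csf1ra, eomesa, actc1b and mylz3 only. Among the other named genes and the counts of the handling list, 728 values kept their call or stayed close to the reported count. A further 19 became called and 21 lost their call. slc7a7, at 5 to 28 counts per library, had too few reads for the test. The reason for its low counts and the causes of these moves were not tested.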
